A study of Homo sapiens with 5 samples.

Results

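SATB1, TOX and TOX2 were described through the peaks that lay in 3 windows of the human genome (build hg19) in MOLT-4 cells, an established line of T cell acute lymphoblastic leukaemia. The windows ran from 17.90 to 18.55 Mb on chromosome 3 for SATB1, from 59.68 to 60.10 Mb on chromosome 8 for TOX and from 42.52 to 42.72 Mb on chromosome 20 for TOX2. They were chosen by gene and with the called peaks in view, and the SATB1 window was extended to take in a RUNX1 cluster at 17.97 to 18.04 Mb, so peak numbers in them are a description and carry no test. A peak was counted when it shared at least 1 bp with a window, which gave 100 peaks of 51392 on chromosomes 1 to 22 and X. The H3K4me3 list gave 7 of its 13181 peaks, the RUNX1 list 90 of 36736 and the SMA4 list 3 of 1475. The study profiled MOLT-4 chromatin by CUT&RUN, in which an antibody directs a micrococcal nuclease to its target and the released fragments are sequenced. Peak lists of 3 antibodies were used: H3K4me3, RUNX1 and a target labelled SMA4, which the labels do not spell out. The cells carried no treatment or genetic change that the labels name, and 2 IgG control samples were not analysed here. With 1 library per antibody there is no replicate check. The lists give positions without heights or read counts, so the depth behind a peak is unknown. The SMA4 list also came from another batch folder and another peak-calling pipeline than the other lists, per the file headers, and antibody, batch and pipeline cannot be told apart.

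SATB1 is a nuclear protein that binds AT-rich DNA and organises chromatin into loops. It is abundant in thymocytes and is needed for normal T cell development. TOX is a DNA-binding protein of the HMG-box family that is needed for the CD4 T cell lineage in the mouse thymus and for the exhausted state of T cells. TOX2 is a close relative of TOX, studied in follicular helper T cells. RUNX1 is a runt-domain transcription factor that binds a short core motif, TGTGGT in its common form, at promoters and enhancers of blood cell genes. H3K4me3, trimethylated lysine on histone H3, marks promoters that are in use or held ready. None of the files measures RNA, so the peaks say nothing of how much of each gene MOLT-4 cells express.

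The promoters of SATB1 and TOX2 were read for base composition and for RUNX1 core motifs. RefSeq (GRCh38.p14) gave 4 start sites for SATB1, all on the minus strand and spread over 20.3 kb, and 2 for TOX2 on the plus strand, 29.8 kb apart. Each promoter window printed here runs from 250 bases before the start site to 50 after it. Both genes matched the table by symbol. The core motifs TGTGGT and TGCGGT, searched on both strands and unable to match the same bases on one strand, occurred in 1 of these 6 promoters and in 19.6% of all 35116 promoters of that table. The match was TGTGGT on the strand opposite to the one printed, at base 47 of the second SATB1 promoter (chr3:18444069-18444368), where capitals mark it. The fourth SATB1 promoter (chr3:18425290-18425589) and the first TOX2 promoter (chr20:43915880-43916179) are shown because both were dense in CpG dinucleotides, which capitals mark in them. Each held 33 CpGs, against a median of 14 over all promoters, and their GC contents were 70.7% and 68.0%, against a median of 58.7%. The other 3 SATB1 promoters held 12, 14 and 6 CpGs and the second TOX2 promoter 10, with GC contents of 53.0 to 58.3%, so the ranges of the 2 genes overlapped. The match describes letters only and does not show a binding site. Positions of GRCh38 and of the peaks' build were not aligned, so no peak was assigned to a start site.
SATB1 start site 2: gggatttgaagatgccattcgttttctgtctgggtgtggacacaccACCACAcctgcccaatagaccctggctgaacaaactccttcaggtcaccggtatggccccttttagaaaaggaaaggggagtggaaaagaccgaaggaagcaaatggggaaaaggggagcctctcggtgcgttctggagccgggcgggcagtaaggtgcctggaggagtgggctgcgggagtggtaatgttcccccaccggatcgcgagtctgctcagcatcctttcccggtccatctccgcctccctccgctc
SATB1 start site 4: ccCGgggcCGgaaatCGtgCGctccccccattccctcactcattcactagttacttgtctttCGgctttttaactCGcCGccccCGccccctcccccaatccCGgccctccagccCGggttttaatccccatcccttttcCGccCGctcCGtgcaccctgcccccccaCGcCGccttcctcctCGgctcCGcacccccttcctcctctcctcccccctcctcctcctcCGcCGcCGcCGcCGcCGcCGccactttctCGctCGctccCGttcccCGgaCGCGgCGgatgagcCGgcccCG
TOX2 start site 1: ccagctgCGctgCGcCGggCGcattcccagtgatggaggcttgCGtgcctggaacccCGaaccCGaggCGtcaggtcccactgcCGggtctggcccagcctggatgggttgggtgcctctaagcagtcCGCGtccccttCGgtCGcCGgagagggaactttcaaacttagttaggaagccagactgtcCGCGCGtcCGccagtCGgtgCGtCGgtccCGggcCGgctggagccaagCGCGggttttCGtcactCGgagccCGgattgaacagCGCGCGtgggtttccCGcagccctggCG

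RUNX1 peaks were dense in all 3 windows, H3K4me3 peaks were called in the SATB1 and TOX windows and not in the TOX2 window, and each window held 1 SMA4 peak. The SATB1 window held 51 RUNX1 peaks in 650 kb, or 78.5 per Mb, the TOX window 28 in 420 kb, or 66.7 per Mb, and the TOX2 window 11 in 200 kb, or 55.0 per Mb. The whole RUNX1 list averaged 12.1 per Mb, with 11.2 on chromosome 3, 10.4 on chromosome 8 and 18.0 on chromosome 20. Bases in RUNX1 peaks came to 64.1 kb (9.87%) of the SATB1 window, 22.6 kb (5.38%) of the TOX window and 10.9 kb (5.44%) of the TOX2 window, against 0.962% of the genome. When chromosomes 1 to 22 and X were cut into back-to-back tiles as long as a window, 14 of 4654 tiles (0.301%) held at least as many RUNX1 peaks as the SATB1 window. For TOX it was 102 of 7208 tiles (1.42%), and for TOX2 643 of 15152 tiles (4.24%). By bases in RUNX1 peaks, 0 of 4654 tiles reached the SATB1 window, 117 of 7208 (1.62%) reached the TOX window and 375 of 15152 (2.47%) the TOX2 window. The windows were drawn round peaks and the tiles were not, so these ranks favour the windows.

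**Figure D1:**
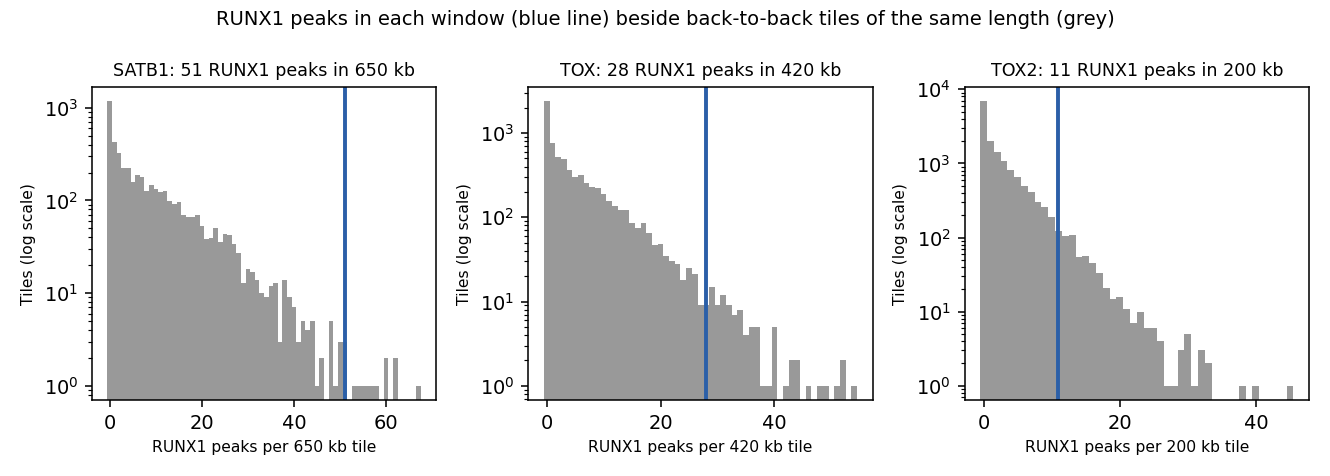
Number of RUNX1 peaks (x axis) in back-to-back tiles of 650, 420 and 200 kb (y axis, number of tiles, log scale), with a blue line at the count in the SATB1, TOX or TOX2 window. The lines stand at 51, 28 and 11 peaks, and 14, 102 and 643 tiles held at least as many.

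H3K4me3 peaks of the SATB1 window lay mostly at its high end, at and beside the gene interval. The window held 5 H3K4me3 peaks (7.69 per Mb, against 4.35 per Mb over the list), and 1027 of 4654 tiles (22.1%) held at least as many. The widest spanned 3105 bp (chr3:18484165-18487269) and ranked 244 of 13181 by width. It lay just beyond the high end of the 18.39 to 18.48 Mb interval taken as the gene. That interval spans 90 kb and is shorter than SATB1 in RefSeq on GRCh38, 100 kb. Builds were not aligned, so this peak may still lie within SATB1. The second spanned 1639 bp (chr3:18465649-18467287), with its middle 19.2 kb from that of the widest, and a neighbour of 595 bp stood 147 bp before it (chr3:18464907-18465501). The other two were narrow: 299 bp in the distal RUNX1 cluster (chr3:18004824-18005122) and 179 bp inside the gene interval (chr3:18414509-18414687), the smallest width in the list. Each of the 5 shared bases with 1 RUNX1 peak. RUNX1 peaks covered 81.1% of the widest H3K4me3 peak, 70.6% of the second, 97.3% of its neighbour and 100% of each narrow one.

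The RUNX1 cluster at 17.97 to 18.04 Mb held the widest RUNX1 peaks of the 3 windows. In these 70 kb, 16 RUNX1 peaks covered 34.6 kb, or 49.4% of the sequence and 54.0% of all RUNX1 bases in the SATB1 window. The widest spanned 6639 bp (chr3:18019886-18026524) and ranked 8 of 36736 by width. It was followed by peaks of 5098 bp (chr3:17979874-17984971, rank 30), 3800 bp (chr3:18011115-18014914, rank 104), 3793 bp (chr3:18004326-18008118, rank 105) and 3124 bp (chr3:17976421-17979544, rank 238). All 5 of the window's RUNX1 peaks of 3 kb or more thus lay in the cluster, 5 of 51 (9.8%) against 0.762% of the whole list. The window was extended to take in this cluster and the 3 kb limit was chosen after values were seen. That share is therefore a description only, and the TOX and TOX2 windows held 0 such peaks. The first peak of the cluster started at 17974377 and the last, of 309 bp, ended at 18037623.

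Neighbouring RUNX1 peaks with gaps of 10 kb or less were joined into regions, and the cluster then fell into a pair of regions separated by 12105 bp. The first (chr3:17974377-17991230) held 8 peaks with 15.2 kb in peaks, 90.0% of its span, and ranked 27 of 21979 RUNX1 regions by bases in peaks. The second (chr3:18003336-18037623) held 8 peaks with 19.4 kb in peaks, 56.7% of its span, and ranked 15. With gaps of up to 20 kb joined, the cluster and the peaks on both sides of it became 1 region of 31 peaks over 131 kb (chr3:17935841-18066351), which ranked 2 of 17524 by bases in peaks. The cluster was picked with its RUNX1 peaks in view, so these ranks repeat that choice. The second region of the cluster contained the narrow H3K4me3 peak of 299 bp and the SMA4 peak of the window. No other H3K4me3 peak lay between the start of the window and the gene interval.

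**Figure D2:**
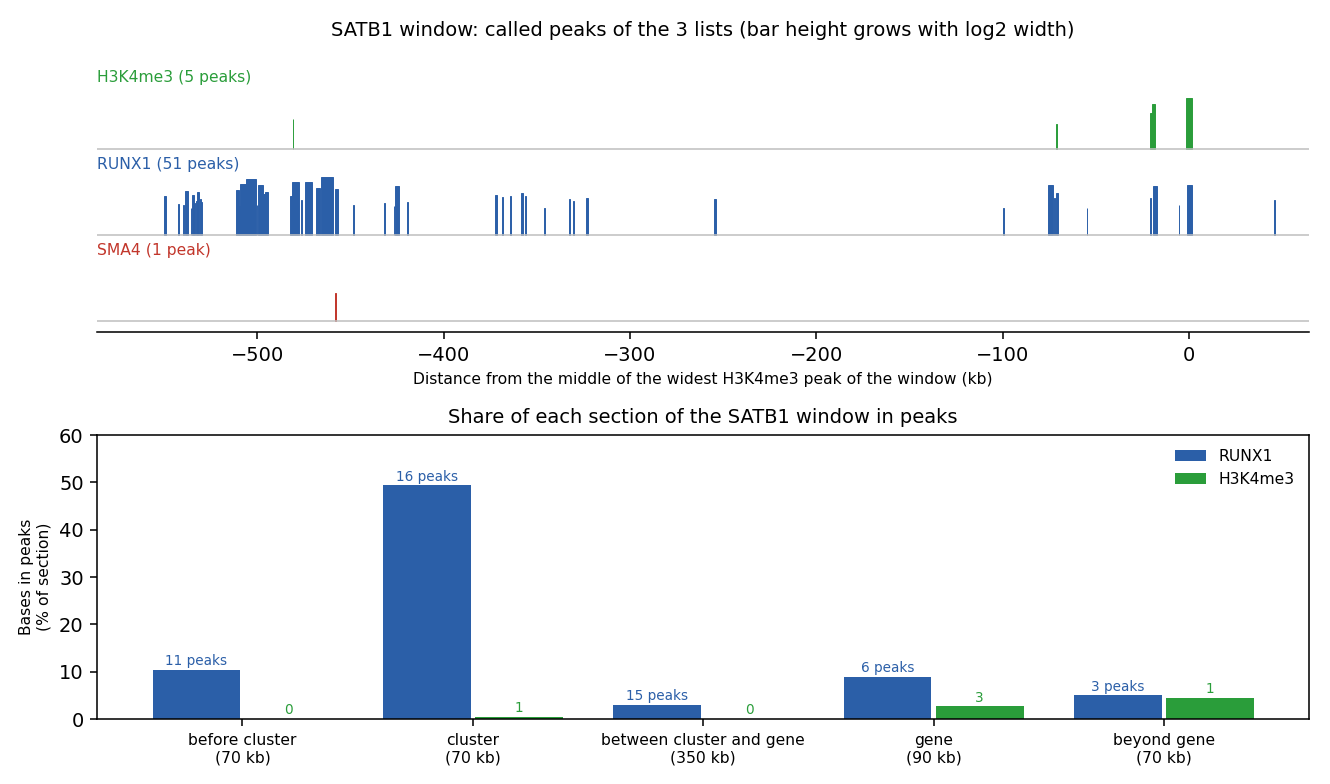
Upper panel: each called peak of the SATB1 window by distance (x axis, kb) from the middle of the widest H3K4me3 peak, 1 row per list, with bar height growing with the log2 of peak width. Lower panel: bases in RUNX1 (blue) and H3K4me3 (green) peaks as a percentage of each section of the window, with the number of peaks over each bar. The cluster section reached 49.4% for RUNX1 and the other 4 sections at most 10.4%, with borders set by the cluster, which was picked with peaks in view.

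The median width of the RUNX1 peaks was 1591 bp in the cluster and lower in every other section of the SATB1 window, at 503 to 906 bp. The section borders were set by the cluster, which was picked with these peaks in view, so this contrast is a description only. The 70 kb before the cluster held 11 RUNX1 peaks with a median width of 503 bp, all in a single region of 20.2 kb (chr3:17935841-17956018) and none with H3K4me3 or SMA4. The 350 kb between the cluster and the gene interval held 15 RUNX1 peaks with a median width of 607 bp, covering 3.07% of it. They included a peak of 2293 bp (chr3:18059427-18061719). A stretch of 154 kb without a RUNX1 peak, from 18231626 to 18385897, separated the last of them, a peak of 222 bp, from the other 14. Within the gene interval 6 RUNX1 peaks covered 8.88% of the sequence. These included a peak of 2758 bp (chr3:18410066-18412823) followed by peaks of 694 bp and of 1117 bp, the last of which held the narrowest H3K4me3 peak, and a peak of 2501 bp (chr3:18466131-18468631) that overlapped the second widest H3K4me3 peak. Beyond the interval, a RUNX1 peak of 2650 bp (chr3:18484753-18487402) overlapped the widest H3K4me3 peak. A peak of 327 bp (chr3:18480130-18480456) lay 3.7 kb from that H3K4me3 peak and shared no base with it.

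The TOX window held fewer H3K4me3 peaks than the SATB1 window, but the widest H3K4me3 peak of the 3 windows. It spanned 4327 bp (chr8:60027976-60032302) and ranked 49 of 13181 by width. It was overlapped by 3 RUNX1 peaks of 697, 1292 and 1349 bp, which together covered 73.8% of it. On its low side, 6 further RUNX1 peaks stood within 10 kb, from 60018999 to 60024370, the widest of them 1728 bp. These 9 peaks formed the richest RUNX1 region of the window, with 7.34 kb in peaks over 13.4 kb (chr8:60018999-60032446), ranking 225 of 21979. The only other H3K4me3 peak spanned 190 bp (chr8:59969177-59969366) and lay inside a RUNX1 peak of 1072 bp, with its middle 5 bp from the middle of that peak. It belonged to a region of 8 RUNX1 peaks over 15.7 kb (chr8:59956101-59971788). Of the 7 H3K4me3 peaks in the 3 windows, 2 were 3 kb or wider, against 2.17% of the whole list, and 3 were 300 bp or narrower, against 21.0% of the list. Both limits were chosen after values were seen, and SATB1 peaks of 3105 and 299 bp only just met them. With 7 peaks these shares do not set the windows apart from the list.

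The remaining RUNX1 peaks of the TOX window lay on both sides of the wide H3K4me3 peak. On the high side, peaks of 983 and 707 bp (chr8:60057483-60058465 and chr8:60058935-60059641) stood 25.2 and 26.6 kb from it. The widest RUNX1 peak of the window, 2851 bp (chr8:59713109-59715959, rank 345 of 36736), stood with 4 smaller ones in a region of 8.95 kb near the low end. This region had no H3K4me3. Toward the rest of the window it was followed by a lone RUNX1 peak of 344 bp and then by a stretch of 157 kb without one, from 59771382 to 59928255. The second widest RUNX1 peak spanned 1969 bp (chr8:59929369-59931337) and also had no H3K4me3. Neighbouring RUNX1 peaks were closest in the TOX window, where 17 of 27 gaps (63.0%) were 1 kb or less. The figure was 21 of 50 (42.0%) for SATB1 and 0 of 10 for TOX2, against 16.4% over the list.

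The TOX2 window held RUNX1 and SMA4 peaks but 0 H3K4me3 peaks. Its first RefSeq promoter, printed above, is one of the CpG-dense pair. Tiles without an H3K4me3 peak were common at this length, 9788 of 15152 (64.6%), and a stretch without a called peak can hold signal below the caller's threshold. The nearest H3K4me3 peaks were 853 bp wide and 223.6 kb before the window (chr20:42295543-42296395), and 1198 bp wide and 118.5 kb after it (chr20:42838528-42839725). RUNX1 peaks of the TOX2 window were more spread out than those of the other windows, but closer together than over the list. Their median gap was 8.48 kb, against 1.49 kb for SATB1, 0.75 kb for TOX and 17.81 kb over the list. The widest spanned 2591 bp (chr20:42697166-42699756, rank 533 of 36736), followed by 1613 bp (chr20:42577950-42579562), 1364 bp (chr20:42647929-42649292), 1043 bp (chr20:42592609-42593651) and 917 bp (chr20:42587853-42588769). The largest region held 5 RUNX1 peaks over 22.1 kb (chr20:42571513-42593651). The median RUNX1 width was 848 bp in the TOX2 window, 728 bp at SATB1 and 623.5 bp at TOX, against 645 bp over the list. Wider than the list median were 7 of 11 peaks at TOX2, 29 of 51 at SATB1 and 14 of 28 at TOX. A median splits its list evenly by definition, so these counts do not set the windows apart from the list.

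**Figure D3:**
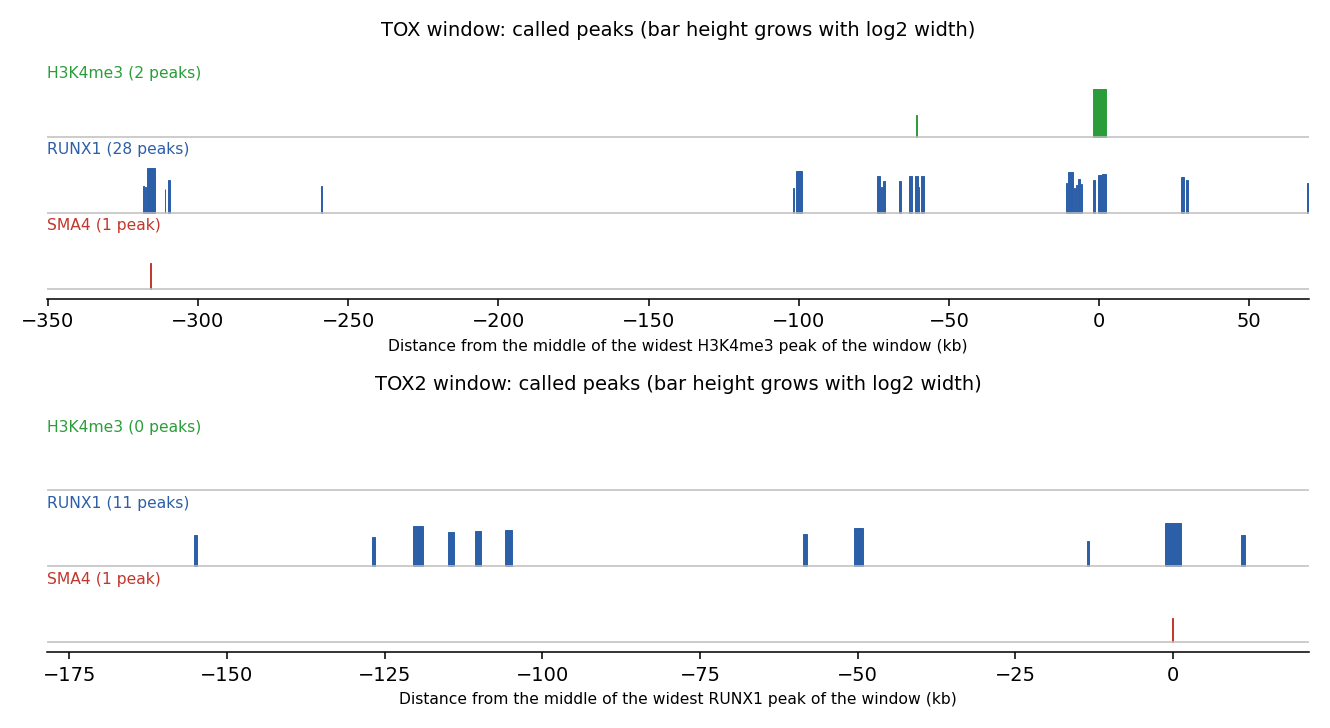
Each called peak of the TOX window (upper panel) and the TOX2 window (lower panel), 1 row per list, with bar height growing with the log2 of peak width. The x axis gives the distance in kb from the middle of the widest H3K4me3 peak for TOX and of the widest RUNX1 peak for TOX2. The SMA4 peak lies in the RUNX1 group farthest from the widest H3K4me3 peak in the TOX window and on the widest RUNX1 peak in the TOX2 window, which has 0 H3K4me3 peaks.

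Most RUNX1 peaks of the 3 windows lay outside H3K4me3 peaks. Of 51 RUNX1 peaks at SATB1, 5 (9.8%, 95% exact interval 3.26 to 21.4%) shared bases with an H3K4me3 peak. So did 4 of 28 at TOX (14.3%, interval 4.03 to 32.7%). At TOX2 it was 0 of 11, which was fixed in advance. That window held 0 H3K4me3 peaks and the nearest lay 118.5 kb outside it, so no overlap could occur. Together this was 9 of 90 (10.0%), against 32.2% of the whole list, but the 90 include the 11 TOX2 peaks. At SATB1 the H3K4me3 peaks were spread unevenly. The sections before the cluster and between it and the gene interval held 11 and 15 RUNX1 peaks and 0 H3K4me3 peaks. The cluster held 16 and 1, the gene interval 6 and 3, and the section beyond it 3 and 1. The difference from the list was not tested, since the SATB1 window was extended on purpose to distal RUNX1 peaks. Each interval covers counting error alone and treats peaks as independent, which neighbours are not. The number of RUNX1 peaks more than 50 kb from any H3K4me3 peak was 22 of 51 at SATB1 and 7 of 28 at TOX, against 34.2% of the list. At TOX2 it was 11 of 11, which restates the absence of H3K4me3 peaks in and near that window. In the other direction, all 7 H3K4me3 peaks of the windows shared bases with RUNX1, against 88.1% of the H3K4me3 list. The 9 RUNX1 peaks with H3K4me3 had a median width of 1292 bp and the 81 without it 664 bp, against 1012 and 527 bp over the list. Sharing at least 1 bp is easier for a wider peak, and these widths were not tested.

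Each of the 3 SMA4 peaks lay wholly inside a RUNX1 peak, and none touched H3K4me3. The count of 1 per window depends on edges drawn with peaks in view: with windows narrowed by 50 kb on each side it was 0 at TOX and at TOX2, and with windows widened by as much it was 2 at TOX. The SATB1 one spanned 246 bp (chr3:18027510-18027755) in a RUNX1 peak of 1699 bp (chr3:18027366-18029064), the twelfth widest of its window and the neighbour of the widest. The TOX one spanned 288 bp (chr8:59714035-59714322) and the TOX2 one 255 bp (chr20:42698232-42698486), and both lay in the widest RUNX1 peak of their window. In the whole RUNX1 list, peaks with SMA4 were also wider, with a median of 1056 bp against 635 bp for those without it. A wider peak meets the 1 bp rule for overlap more easily, and the difference in width was not tested. Over the list, 65.9% of SMA4 peaks shared bases with RUNX1 and 21.8% with H3K4me3, and 44.9% met RUNX1 without H3K4me3. Counted from the RUNX1 side, 3 of 90 peaks (3.33%) carried SMA4, against 2.56% of the list. From the H3K4me3 side, 0 of 7 carried it, against 2.39% of the list. These shares rest on too few peaks to set the windows apart from the list.

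At SATB1 and TOX the SMA4 peak did not lie beside the widest H3K4me3 peak of the window. From the middle of the SMA4 peak to that of the widest H3K4me3 peak it was 458 kb at SATB1 and 316 kb at TOX. The nearest H3K4me3 peak of any width was 22.4 kb away at SATB1, the narrow peak in the cluster, 87.5 kb at TOX and 140 kb at TOX2, against a median of 75.4 kb over the SMA4 list. The TOX2 peak was the most isolated of the 3 within its own list. Chromosome 20 held 23 SMA4 peaks (0.366 per Mb), and the nearest to the TOX2 peak were 4.87 Mb before it and 9.56 Mb after it. At SATB1 these distances were 0.834 and 0.755 Mb, and at TOX 0.0853 and 0.408 Mb.

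**Figure D4:**
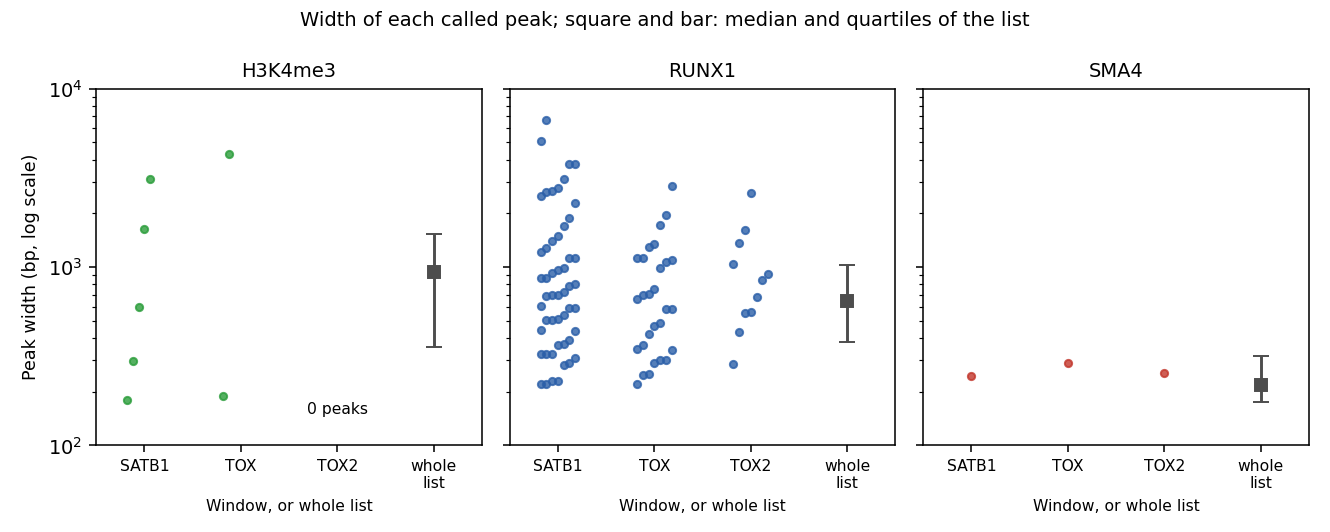
Width of each called peak (y axis, bp, log scale) in the SATB1, TOX and TOX2 windows for H3K4me3, RUNX1 and SMA4, with the median and quartiles of the whole list as a square and bar. RUNX1 widths reach 6639 bp at SATB1, 2851 bp at TOX and 2591 bp at TOX2, and the 3 SMA4 peaks span 246 to 288 bp, against a list median of 219 bp.

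No RUNX1 peak crossed a window edge, but the high edge of the TOX window fell in a narrow gap between 2 of them. The last RUNX1 peak inside it spanned 465 bp (chr8:60099470-60099934) and the first outside 1455 bp (chr8:60100052-60101506), both 0.1 kb from the edge. An SMA4 peak of 158 bp (chr8:60122278-60122435) lay 22.3 kb beyond it. At the low end of the TOX window the nearest RUNX1 peaks were 31.9 kb inside and 44.2 kb outside, with widths of 347 and 1591 bp. At SATB1 the RUNX1 peaks nearest the edges were 35.8 kb inside and 82.7 kb outside at the low end, with widths of 800 and 1720 bp, and 18.1 kb inside and 147.9 kb outside at the high end, with widths of 537 and 611 bp. At TOX2 they were 23.2 kb inside and 91.6 kb outside at the low end, with widths of 561 and 522 bp, and 10.2 kb inside and 118.6 kb outside at the high end, with widths of 551 and 221 bp. In RefSeq order on GRCh38, the nearest protein-coding genes are TBC1D5 and KCNH8 on the low and high sides of SATB1, NSMAF and CA8 beside TOX, and GTSF1L and JPH2 beside TOX2. The long non-coding RNA SATB1-AS1 is also listed beside SATB1, so a peak in a window need not belong to the gene that names it.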

How the data were processed

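Peak positions in hg19 were taken as deposited, 1 list per library, from CUT&RUN of MOLT-4 cells sequenced as paired-end reads of 150 bp. Per the file headers, H3K4me3 and RUNX1 peaks came from MACS2 (folder named for batch 2) and SMA4 peaks from cutruntools at q below 0.01 (batch 3). MACS2, SEACR and hg19 are also listed in the submitters' processing notes. For the aligner, the other thresholds and the control used, nothing was given in the sources used here. The files hold no peak scores, so a stricter threshold was replaced by peaks at or above the median width of their list.

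Coordinates are written 1-based. Overlap meant at least 1 bp, and RUNX1 peaks with gaps of up to 10 kb were joined into regions. Exact intervals are 95% Clopper-Pearson. Sections of the SATB1 window were assigned by peak midpoint, with the gene interval taken from the window definition and not from an annotation. Named peaks were all H3K4me3 and SMA4 peaks, the 5 widest RUNX1 peaks of each window and those with SMA4. Others named, the CpG counts, the distances and the 3 kb, 300 bp and 50 kb limits were chosen after values were seen. The members and lists were chosen with earlier results of these data known. TOX3 and TOX4, planned as related genes, were not placed, as no annotation of hg19 was used. Overlap code was tested on simulated peaks. Python 3.11.15, pandas 2.3.3 and SciPy 1.17.1 were used.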

Additional observations from a re-analysis of the deposited data

How the results depend on the processing

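Under 11 alternatives, 104 of 120 recomputed values stayed within 1.5 times the reported one. Some of these could hardly move, so the count does not measure robustness. Merging touching peaks changed no value, and overlaps with H3K4me3 at TOX2 stayed at 0 because that window had no H3K4me3 peak. Keeping only peaks at or above their list's median width left 29, 14 and 7 RUNX1 peaks at SATB1, TOX and TOX2. It left 2 H3K4me3 peaks at SATB1 and 1 at TOX, each still with RUNX1, and 2 RUNX1 peaks with H3K4me3 at SATB1. Counting overlap at the RUNX1 midpoint gave 3 such peaks at SATB1. Narrowing each window by 50 kb per side left 7 RUNX1 peaks with 6.89 kb at TOX2 and 0 SMA4 peaks at TOX and at TOX2, and widening gave 2 SMA4 peaks at TOX. RUNX1 regions numbered 8 at TOX2 when joined at 5 kb and 7 at SATB1 when joined at 20 kb. These changes follow from how each alternative was built: fewer peaks, a stricter overlap, moved edges or another joining distance. Lists without scores or depth limit every width and absence to what the callers reported.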
